A study of Mus musculus with 12 samples.

Results

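The genes described here are antiviral effectors and RNA sensors that interferons switch on. A list of 37 such genes was looked up among probe sets that the platform annotation pairs with 1 symbol. Of them 35 were found, each with 1 probe set, among 19938 genes measured in all. The other two, Isg15, whose probe set carries a second symbol, and Ifi44 are not analysed here. RNA had been measured on Affymetrix GeneChip Mouse Gene 1.0 arrays, 1 array per sample, 12 arrays in all. All groups came from bone marrow of C57B/6 mice grown for 6 days with 20 ng/ml of the myeloid growth factor GM-CSF. GM-DC-LPS were cells labelled dendritic that received lipopolysaccharide (LPS), a bacterial ligand of Toll-like receptor 4, at 10 ng/ml for 4 hours, and GM-DC-US were the same kind of cells left unstimulated. GM-MF-LPS were cells labelled macrophage with the same LPS dose and time, and GM-MF-US were unstimulated cells labelled macrophage. Each of the 4 groups held 3 arrays. How the cells labelled dendritic and macrophage were separated, and the age and sex of the mice, are not given in the sources used here.

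In macrophages and dendritic cells, LPS binding to Toll-like receptor 4 switches on interferon beta through the adaptor TRIF and the factor IRF3. Interferon beta leaves the cell, binds the receptor IFNAR1 and IFNAR2 on the same or neighbouring cells, and the kinases JAK1 and TYK2 then activate transcription factors, among them STAT2 in a complex with IRF9, that bind interferon-stimulated response elements in promoters. The genes switched on in this way encode proteins that sense viral RNA, cut or edit it, block its translation, or hinder the copying and release of virus.

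The response element is a sequence through which interferon can switch on genes, so stretches of promoter windows that hold its core are shown for 6 members. They are, among members with the core whose LPS difference was called, the 2 with the largest and the 1 with the smallest difference in GM-DC and in GM-MF. RefSeq windows (assembly GRCm38.p6) from 250 bases before to 50 bases after each annotated start were searched on both strands for the core GAAANNGAAA, for the gamma-activated site TTCNNNGAA and for the NF-kB motif in its degenerate form. Windows were found for 25 of the 35 members. Capitals mark the core, or its reverse complement where it lies on the other strand, and none of the stretches shown has a gamma-activated site that overlaps it. All are written 5′ to 3′ on the strand of the gene.
Ifit1: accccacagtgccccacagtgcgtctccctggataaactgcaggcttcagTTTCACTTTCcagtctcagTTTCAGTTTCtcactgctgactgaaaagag
Ddx58: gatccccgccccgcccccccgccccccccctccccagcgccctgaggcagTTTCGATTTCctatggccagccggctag
Ddx60: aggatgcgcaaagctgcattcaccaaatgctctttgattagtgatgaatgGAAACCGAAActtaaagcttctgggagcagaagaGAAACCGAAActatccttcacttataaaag
Ifih1: gagaagagaatcGAAACAGAAAccgatctg
Rsad2: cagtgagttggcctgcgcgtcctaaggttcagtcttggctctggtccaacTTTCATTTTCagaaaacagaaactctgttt
Eif2ak2: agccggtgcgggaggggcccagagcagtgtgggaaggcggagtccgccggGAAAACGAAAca
The stretch of Ifit1 lies at chr19:34640735-34640833 on the plus strand and holds 2 cores. That of Ddx60, at chr8:61927984-61928097 on the plus strand, also holds 2. The stretches of Ddx58 (chr4:40239796-40239873), Ifih1 (chr2:62646206-62646235), Rsad2 (chr12:26456543-26456622) and Eif2ak2 (chr17:78882543-78882604) lie on the minus strand and hold 1 core each. Counted from the annotated start as base 1, the core begins at base 3 in Ddx58, 33 in Ifih1 and 19 in Eif2ak2, after the start. In Ifit1, Ddx60 and Rsad2 the cores lie before the start. The core was present in the windows of 9 of the 25 members (36%), namely Ifit1, Ifit3, Oas3, Ifih1, Ddx58, Ddx60, Eif2ak2, Rsad2 and Bst2, against 605 of 15563 genes with a window (3.89%). Some genes have more than 1 window, and a gene was counted where any of its windows held the motif. The gamma-activated site was found in 6 of the 25 members (24%), against 9.01% of all genes, and the NF-kB motif in 7 (28%), against 11% of all genes. A match describes the letters of the window and is not a measured binding site, and no match says only that these letters are not in that window.

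Levels are the log2 values as deposited. The medians of the arrays lay between 4.41 and 4.54, and arrays of 1 group correlated at 0.993 to 0.996 across genes. Differences are given on the log2 scale as the limma estimate ± its standard error, from 1 fit of the 4 group means over all 19938 genes, and a gene was called at a two-sided Benjamini-Hochberg adjusted p under 0.05. Whether the replicates of a group are separate cultures or animals is not labelled, so a p-value here weighs a difference against a spread that may be technical. In unstimulated GM-DC, Ifit2, Ifit3, Oas2, Ddx60, Samd9l and Rtp4 lay under the array median on all 3 arrays. Ifit1, Oas3, Oasl2 and Ddx58 were under 4.41, the lowest array median, on arrays 1 and 3 of that group, and Cmpk2 was on array 1. No background call was made, so a fold against such a value is a ratio of signals whose lower part is not shown to lie above background. Because these are bulk samples, fewer cells that express a gene and less RNA per cell cannot be told apart.

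The labels were checked against marker genes. Of 8 dendritic cell markers, 7 (Flt3, Zbtb46, Ccr7, Dpp4, Fscn1, Cd83 and Ly75) were higher in unstimulated GM-DC than in unstimulated GM-MF and 1, Itgax, was lower. Over all genes 18% were called higher and 16.2% lower in that comparison. All 8 macrophage markers were lower in GM-DC, among them Csf1r, at 6.70, 6.72 and 6.39 in unstimulated GM-DC against 11.22, 11.16 and 11.35 in unstimulated GM-MF. The second array of GM-DC with LPS stood apart for the genes described here: it was the highest of its 3 arrays for 32 of the 35 members, with a mean over members of 8.95 against 8.504 and 8.52 on arrays 1 and 3. The second array of unstimulated GM-DC was the highest of its group for 23 members. Counts and medians without that second LPS array are given beside the counts of each comparison with LPS.

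In GM-DC, LPS raised nearly the whole set. Of the 35 members 33 were higher with LPS, 0 were lower, and Bst2 and Epsti1 were not called, against a background of 9.72% of all genes called in either direction, 5.23% higher and 4.49% lower. The median difference over the members was 2.47, with a range from 0.19 to 4.66, against a median of -0.01 over all genes. Without the second array of GM-DC with LPS, 32 members were higher and the median was 2.29. The 3 members with the largest rise were Ifit1 (4.66 ± 0.15), Ifit2 (4.33 ± 0.17) and Samd9l (4.31 ± 0.17).

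In GM-MF the same dose and time gave fewer calls and a smaller median rise. There 22 of 35 were higher with LPS, 0 were lower and 13 were not called, against 17.4% of all genes called in either direction, 6.54% higher and 10.8% lower. The median over the members was 0.57, with a range from 0.04 to 1.81, against -0.02 over all genes. Without the second array of GM-DC with LPS, which enters the shared estimate of the spread, 24 members were higher and the median was 0.57. The number not called depends on that shared spread. The median replicate SD over members was 0.07 in each GM-MF group, against 0.27 in GM-DC with LPS and 0.21 in unstimulated GM-DC. In a fit of the GM-MF arrays alone, Ifit3 (adjusted p = 0.026), Xaf1 (0.0366) and Zbp1 (0.0468) were called, and so were Oasl2 and Samd9l. The largest rises were those of Mx2 (1.81 ± 0.13), Cmpk2 (1.55 ± 0.15) and Isg20 (1.45 ± 0.15). Of the 22, 5 rose by 1 or more, namely Mx2, Cmpk2, Isg20, Oasl1 and Mx1, against 1.80% of all genes called higher at that size. With cyclic loess scaling, calls over all genes in GM-MF split into 49.4% higher, against 37.7% higher as deposited.

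The difference of these responses was tested as an interaction, the GM-DC response minus the GM-MF response. This was called higher for 29 of 35 members and lower for 1, Mx1, while Oas2, Herc6, Bst2, Isg20 and Epsti1 were not called, against 7.59% of all genes called in either direction, 4.53% higher and 3.06% lower. The median interaction over the members was 1.60, against 0.02 over all genes. On the log2 scale the interaction compares ratios of signals, and for 32 members the unstimulated level was called lower in GM-DC. Gains in linear signal, and a ceiling of the arrays, were not examined. Leaving out the second array of GM-DC with LPS gave 27 higher, 2 lower and a median of 1.501. No member had an interaction of -1 or lower, against 1.35% of all genes. The largest were those of Ifit1 (3.97 ± 0.21), Xaf1 (3.84 ± 0.22) and Samd9l (3.83 ± 0.23). Across the members, 22 were called higher in both cell types, 11 were called in GM-DC and not in GM-MF, 0 the other way round, and 2 were called in neither. The share of all genes with each of these patterns was not counted, and the split depends on the shared estimate of the spread. The interaction was itself called for each of the 11 members called in GM-DC and not in GM-MF.

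**Figure D1:**
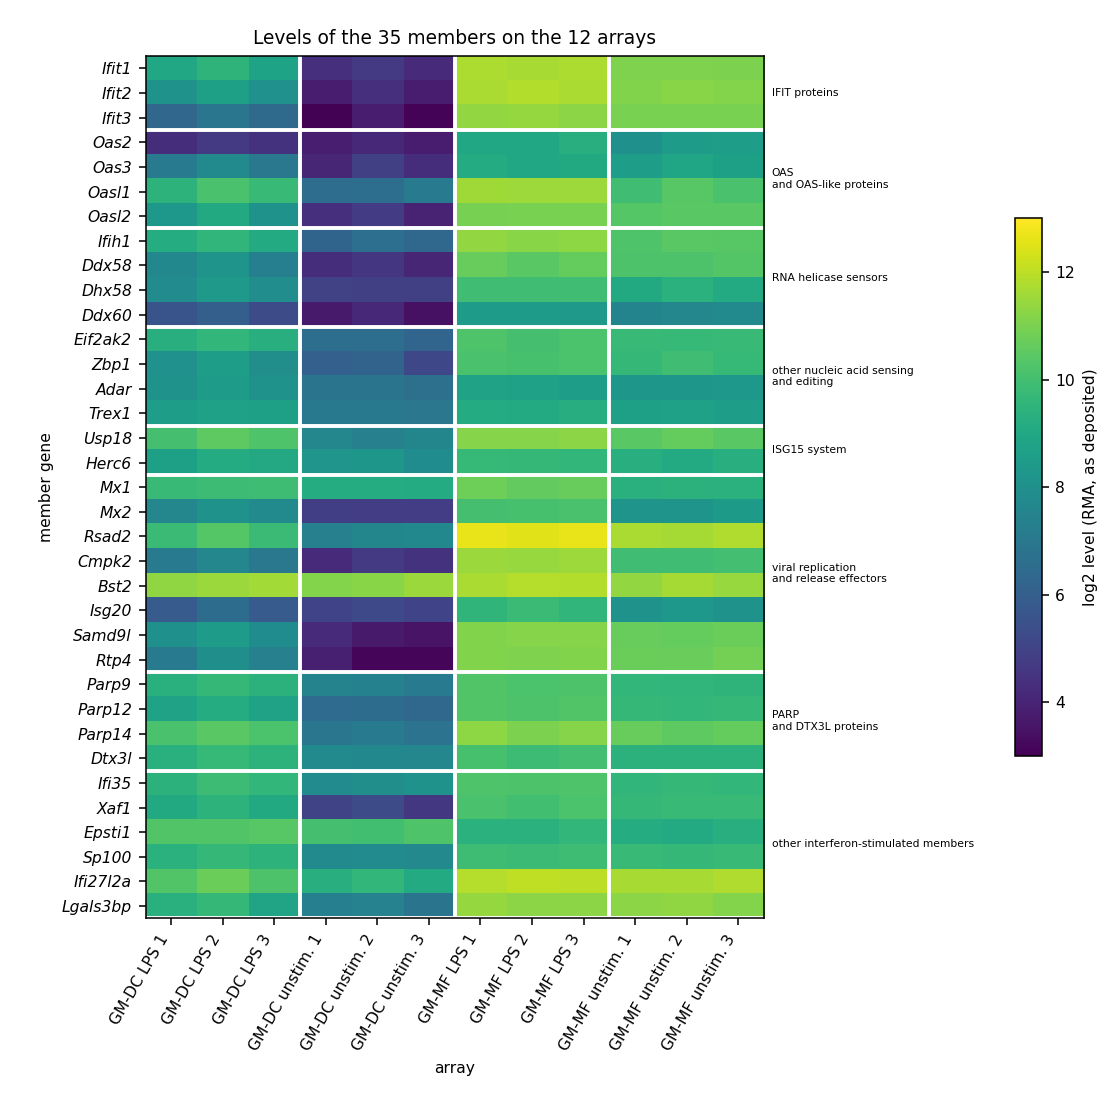
Colour gives the log2 level of each of the 35 members (rows, grouped by role) on each of the 12 arrays (columns, 3 per group). Unstimulated GM-DC are darkest in most rows, and Epsti1 is the row in which GM-DC are brighter than GM-MF with and without LPS.

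**Figure D2:**
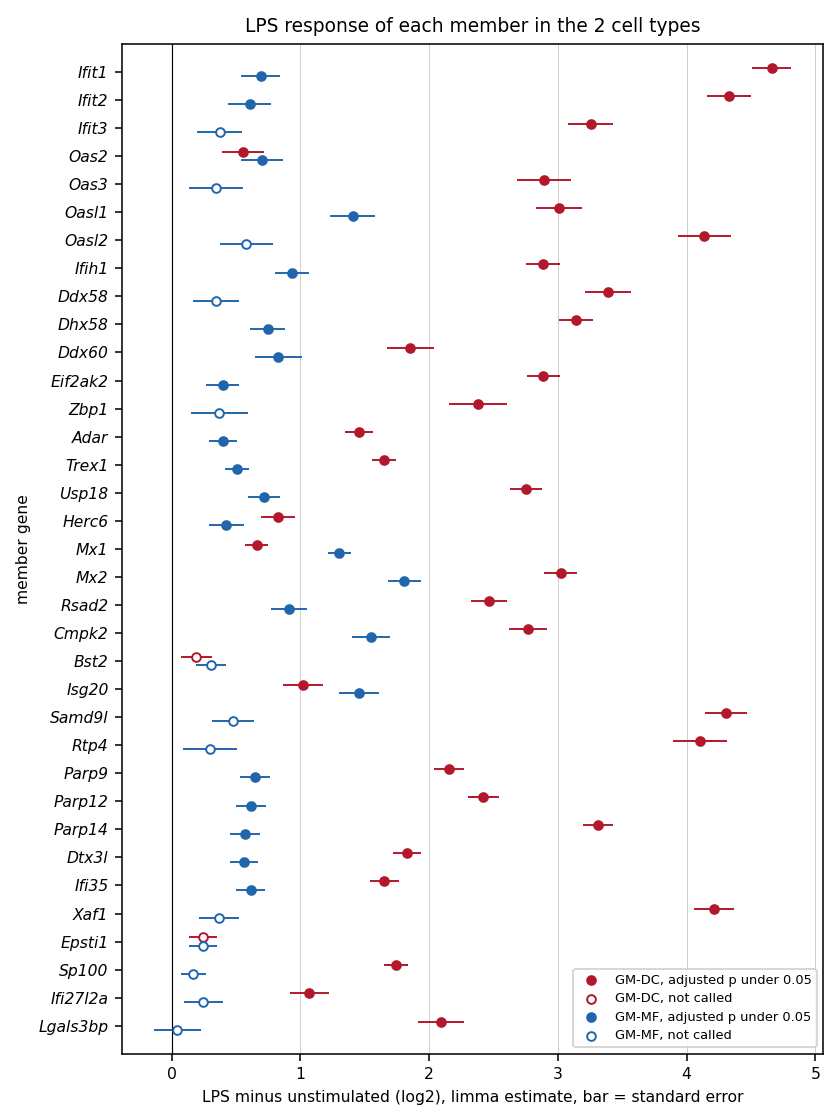
Points give the LPS minus unstimulated difference (log2, x axis) of each member (y axis) in GM-DC (red) and GM-MF (blue), with bars of 1 standard error, filled where the adjusted p was under 0.05. The GM-DC points reach 4.66 (Ifit1) and the GM-MF points 1.81 (Mx2), and for Oas2, Mx1, Bst2, Isg20 and, by under 0.01, Epsti1 the GM-MF point lies to the right of the GM-DC point.

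IFIT proteins bind viral RNA that lacks the cap marks of the cell's own messages and block its translation. Ifit1 had log2 levels of 9.004, 9.49 and 8.81 in GM-DC with LPS, against 4.40, 4.69 and 4.23 in unstimulated GM-DC. The GM-DC groups did not overlap, and the rise was 25.3-fold (log2 4.66 ± 0.15, adjusted p = 1.35e-10). Arrays 1 and 3 of unstimulated GM-DC were under the array median for Ifit1, so this fold is a ratio to signals not shown to lie above background. In GM-MF the levels of Ifit1 were high on every array, at 11.79, 11.69 and 11.77 with LPS against 11.06, 11.07 and 11.04 without, a rise of 0.69 ± 0.15 (adjusted p = 0.00456). Ifit2 followed the same order of groups, with 8.13, 8.68 and 8.05 in GM-DC with LPS, against 3.79, 4.34 and 3.74 in unstimulated GM-DC. Its levels in GM-MF were 11.73, 11.84 and 11.72 with LPS and 11.11, 11.22 and 11.14 without, a rise of 0.61 ± 0.17 with an adjusted p of 0.0208. That call was lost when any 1 of 3 arrays of GM-MF was left out: unstimulated array 1 or 3 or LPS array 2 (adjusted p = 0.0612 to 0.0716). Ifit3 showed the widest gap between the cell types, with 6.29, 6.93 and 6.45 in GM-DC with LPS, against 3.08, 3.74 and 3.09 in unstimulated GM-DC. All 3 unstimulated GM-DC arrays were under the array median for Ifit3. In GM-MF, Ifit3 stood at 11.37, 11.41 and 11.27 with LPS and 10.97, 10.98 and 10.99 without, a difference of 0.37 ± 0.18 that was not called (adjusted p = 0.195). Mice carry a near-identical copy, Ifit3b, and whether the probe set of Ifit3 also reads it was not tested.

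OAS proteins make a short adenylate chain that activates RNase L, which cuts RNA. Mouse OASL1, an OAS-like protein, limits translation of Irf7. The 4 measured members did not move together. Oasl2 rose the most in GM-DC, with 8.32, 9.06 and 8.13 in GM-DC with LPS, against 4.37, 4.73 and 3.99 in unstimulated GM-DC, a difference of 4.14 ± 0.21. In GM-MF it stood at 10.96, 10.97 and 10.996 with LPS and 10.35, 10.43 and 10.42 without, and the difference of 0.58 ± 0.21 was not called (adjusted p = 0.0702), although it was with the replicate number as a block (adjusted p = 0.0312). It was also called without array 2 or 3 of unstimulated GM-DC or of GM-DC with LPS (adjusted p = 0.0148 to 0.0495). Oasl1 rose in both cell types. Its levels were 9.48, 10.14 and 9.72 in GM-DC with LPS and 6.58, 6.63 and 7.11 in unstimulated GM-DC, and 11.58, 11.54 and 11.53 in GM-MF with LPS and 9.92, 10.42 and 10.11 in unstimulated GM-MF. The rises were 3.01 ± 0.18 in GM-DC and 1.40 ± 0.18 in GM-MF, and the interaction was 1.60 ± 0.25 (adjusted p = 0.0008). Oas3 rose by 2.89 ± 0.21 in GM-DC, with 7.13, 7.78 and 7.01 in GM-DC with LPS, against 4.06, 4.90 and 4.29 in unstimulated GM-DC. In GM-MF, Oas3 was at 9.14, 8.95 and 9.08 with LPS and 8.56, 8.90 and 8.68 without, a difference of 0.34 ± 0.21 that was not called (adjusted p = 0.338). Oas2, its neighbour on chromosome 5, stayed low in GM-DC, with 4.30, 4.70 and 4.45 in GM-DC with LPS, against 3.82, 4.16 and 3.82 in unstimulated GM-DC. The GM-DC groups of Oas2 did not overlap, but the rise of 0.55 ± 0.16 was close to the threshold (adjusted p = 0.0446), and leaving out any 1 of 7 of the 12 arrays lost it (adjusted p = 0.0508 to 0.199). Those arrays were arrays 1 and 3 of unstimulated GM-DC, arrays 2 and 3 of GM-DC with LPS, array 2 of unstimulated GM-MF, and arrays 1 and 2 of GM-MF with LPS. GM-MF held Oas2 at 8.99, 8.96 and 9.28 with LPS and 8.02, 8.48 and 8.62 without, a rise of 0.70 ± 0.16 (adjusted p = 0.00651). The interaction for Oas2 was -0.15, with a 95% interval from -0.64 to 0.34 (adjusted p = 0.836).

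The RNA helicase sensors detect double-stranded or uncapped RNA in the cytoplasm: Ddx58 encodes RIG-I, Ifih1 encodes MDA5, Dhx58 encodes the regulator LGP2, and Ddx60 a related helicase. All 4 rose in GM-DC, by a median of 3.01, and all 4 rose by more there than in GM-MF. Ddx58 had the largest rise of them, with 7.67, 8.18 and 7.31 in GM-DC with LPS, against 4.32, 4.58 and 4.09 in unstimulated GM-DC, a difference of 3.39 ± 0.18. In GM-MF, Ddx58 was at 10.68, 10.45 and 10.64 with LPS and 10.21, 10.20 and 10.33 without, a difference of 0.35 ± 0.18 that was not called (adjusted p = 0.24). The groups of Ddx58 did not overlap in either cell type. Ifih1 stood at 9.21, 9.58 and 9.12 in GM-DC with LPS and 6.22, 6.65 and 6.38 in unstimulated GM-DC, and 11.38, 11.24 and 11.29 in GM-MF with LPS and 10.26, 10.46 and 10.39 in unstimulated GM-MF. Its rises were 2.89 ± 0.13 in GM-DC and 0.93 ± 0.13 in GM-MF. Dhx58 rose by 3.14 ± 0.13 in GM-DC, where its levels averaged 8.04 ± 0.31 with LPS and 4.90 ± 0.02 without (SD, n = 3 each). Its rise in GM-MF was 0.74 ± 0.13, with means of 9.93 ± 0.01 with LPS and 9.18 ± 0.16 without (SD, n = 3 each). Ddx60 had the smallest rise in GM-DC of the 4, with 5.58, 6.03 and 5.27 in GM-DC with LPS, against 3.72, 4.15 and 3.45 in unstimulated GM-DC. It moved by 1.85 ± 0.18 in GM-DC and 0.83 ± 0.18 in GM-MF, and the interaction of 1.02 ± 0.26 (adjusted p = 0.0247) was lost when any 1 of 5 arrays was left out (adjusted p = 0.0575 to 0.0681). Those were arrays 1 and 3 of unstimulated GM-DC, array 2 of GM-DC with LPS, and array 3 of GM-MF with and without LPS.

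Other members sense, edit or degrade nucleic acids. Eif2ak2 encodes PKR, a kinase that stops translation when it binds double-stranded RNA. It averaged 9.39 ± 0.20 in GM-DC with LPS and 6.50 ± 0.21 in unstimulated GM-DC (SD, n = 3 each), a rise of 2.89 ± 0.13. In GM-MF its levels were 10.24, 10.03 and 10.16 with LPS and 9.78, 9.71 and 9.76 without. The GM-MF rise of 0.39 ± 0.13 (adjusted p = 0.0434) was lost when any 1 of 6 arrays was left out, array 1 of unstimulated GM-DC, each of unstimulated GM-MF, or array 1 or 3 of GM-MF with LPS (adjusted p = 0.0506 to 0.141). Zbp1 encodes a sensor of Z-form nucleic acid that triggers cell death. It stood at 8.05, 8.59 and 7.92 in GM-DC with LPS and 6.07, 6.19 and 5.18 in unstimulated GM-DC, and 10.13, 10.08 and 10.17 in GM-MF with LPS and 9.64, 9.93 and 9.70 in unstimulated GM-MF. Its rise was 2.38 ± 0.22 in GM-DC, while the GM-MF difference of 0.37 ± 0.22 was not called (adjusted p = 0.333). Adar edits adenosine to inosine in double-stranded RNA, which keeps the cell's own RNA from being sensed. It was at 8.11, 8.48 and 8.12 in GM-DC with LPS and 6.84, 6.85 and 6.68 in unstimulated GM-DC, and 8.75, 8.74 and 8.62 in GM-MF with LPS and 8.30, 8.29 and 8.33 in unstimulated GM-MF. It rose by 1.45 ± 0.11 in GM-DC and by 0.40 ± 0.11 in GM-MF, and the GM-MF call was lost without unstimulated array 1 or 3 or LPS array 1 or 2 of GM-MF (adjusted p = 0.0521 to 0.0679). Trex1 encodes an exonuclease that removes cytoplasmic DNA. Its levels were 8.55, 8.74 and 8.69 in GM-DC with LPS and 7.03, 7.04 and 6.95 in unstimulated GM-DC, and 9.15, 9.12 and 9.23 in GM-MF with LPS and 8.68, 8.71 and 8.60 in unstimulated GM-MF. The rises were 1.65 ± 0.09 in GM-DC and 0.51 ± 0.09 in GM-MF, with no overlap between the groups in either.

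The ISG15 system attaches the ubiquitin-like protein ISG15 to other proteins. Usp18 removes ISG15 and also dampens signalling at the interferon receptor, and Herc6 is the main ligase for it in mice. Usp18 was at 10.06, 10.53 and 10.23 in GM-DC with LPS and 7.63, 7.34 and 7.59 in unstimulated GM-DC, and 11.20, 11.20 and 11.28 in GM-MF with LPS and 10.46, 10.63 and 10.44 in unstimulated GM-MF. Its rise was 2.75 ± 0.13 in GM-DC and 0.72 ± 0.13 in GM-MF, and the interaction was 2.04 ± 0.18 (adjusted p = 4.48e-06). Herc6 moved less, at 8.68, 9.14 and 9.03 in GM-DC with LPS and 8.21, 8.30 and 7.87 in unstimulated GM-DC, and 9.70, 9.65 and 9.63 in GM-MF with LPS and 9.26, 9.12 and 9.32 in unstimulated GM-MF. It rose by 0.83 ± 0.13 in GM-DC (adjusted p = 0.000819) and by 0.42 ± 0.13 in GM-MF (adjusted p = 0.04, or 0.0506 with the replicate number as a block). The GM-MF call of Herc6 was also lost without array 1 of unstimulated GM-DC or without any of the 6 GM-MF arrays, left out 1 at a time (adjusted p = 0.0502 to 0.119). The interaction for Herc6 was 0.40, with a 95% interval from -0.0024 to 0.81 (adjusted p = 0.275).

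The effectors that act on viral replication and release included the members with the largest LPS response in GM-MF. Mx2 encodes a dynamin-like GTPase related to Mx1. It had 7.61, 8.15 and 7.80 in GM-DC with LPS, against 4.87, 4.81 and 4.82 in unstimulated GM-DC. In GM-MF it had 10.03, 10.08 and 10.11 with LPS, against 8.16, 8.17 and 8.46 without. The rises of Mx2 were 3.02 ± 0.13 in GM-DC and 1.81 ± 0.13 in GM-MF (adjusted p = 1.61e-09 and 2.12e-07), and the interaction was 1.22 ± 0.18 (adjusted p = 0.000585). Mx1 encodes a GTPase that blocks influenza viruses, and many inbred laboratory mouse strains carry a deletion in it that leaves no working protein. It was the 1 member with an interaction called lower. Its levels were 9.74, 9.85 and 9.91 in GM-DC with LPS and 9.18, 9.18 and 9.16 in unstimulated GM-DC, and 10.77, 10.61 and 10.68 in GM-MF with LPS and 9.36, 9.42 and 9.39 in unstimulated GM-MF. Mx1 rose by 0.66 ± 0.09 in GM-DC and by 1.30 ± 0.09 in GM-MF, and the interaction was -0.64 ± 0.13 (adjusted p = 0.00483). Isg20 encodes an exonuclease that degrades RNA. It was low in GM-DC and rose by 1.02 ± 0.15 there, with 5.87, 6.52 and 5.86 in GM-DC with LPS, against 4.999, 5.19 and 4.99 in unstimulated GM-DC. In GM-MF it had 9.56, 9.82 and 9.59 with LPS, against 8.14, 8.32 and 8.15 without, a rise of 1.45 ± 0.15. The interaction for Isg20 was -0.43, with a 95% interval from -0.90 to 0.03 (adjusted p = 0.321), and without the second array of GM-DC with LPS it was -0.65 and called (adjusted p = 0.0264).

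Rsad2, which encodes viperin, and Cmpk2, a mitochondrial nucleotide kinase, are neighbours on chromosome 12 and work in the same nucleotide pathway, viperin making a chain terminator of viral RNA synthesis. Rsad2 was at 9.82, 10.35 and 9.82 in GM-DC with LPS and 7.34, 7.60 and 7.65 in unstimulated GM-DC, and 12.68, 12.56 and 12.68 in GM-MF with LPS and 11.74, 11.65 and 11.80 in unstimulated GM-MF. Cmpk2 was at 7.10, 7.62 and 6.999 in GM-DC with LPS and 4.25, 4.70 and 4.47 in unstimulated GM-DC, and 11.49, 11.48 and 11.54 in GM-MF with LPS and 9.92, 9.94 and 10.01 in unstimulated GM-MF. In GM-DC they rose by 2.47 ± 0.14 for Rsad2 and 2.77 ± 0.15 for Cmpk2, and in GM-MF by 0.91 ± 0.14 for Rsad2 and 1.55 ± 0.15 for Cmpk2. For both the rise was larger in GM-DC, by 1.55 ± 0.20 for Rsad2 and by 1.22 ± 0.21 for Cmpk2 (adjusted p = 0.000132 and 0.00179). Samd9l, a restriction factor of poxviruses, had 8.01, 8.49 and 7.87 in GM-DC with LPS, against 4.19, 3.72 and 3.54 in unstimulated GM-DC. The rise of Samd9l in GM-DC was 19.8-fold (log2 4.31 ± 0.17), from unstimulated values under the array median. In GM-MF it was at 11.09, 11.19 and 11.19 with LPS and 10.66, 10.64 and 10.74 without, and the difference of 0.47 ± 0.17 was not called (adjusted p = 0.0651), but it was without array 1 or 3 of unstimulated GM-DC or array 2 of GM-DC with LPS (adjusted p = 0.0296 to 0.0472). Rtp4, a chaperone of membrane receptors that interferons induce, had 7.13, 7.99 and 7.34 in GM-DC with LPS, against 3.88, 3.12 and 3.14 in unstimulated GM-DC. Its rise in GM-DC was 4.10 ± 0.21, also from values under the array median. Rtp4 in GM-MF was at 11.11, 11.05 and 11.10 with LPS and 10.75, 10.73 and 10.90 without, a difference of 0.29 ± 0.21 (adjusted p = 0.43). Bst2, or tetherin, which holds budding virus on the cell surface, was high on all arrays. It stood at 11.33, 11.51 and 11.59 in GM-DC with LPS and 11.14, 11.22 and 11.49 in unstimulated GM-DC, and 11.74, 11.87 and 11.83 in GM-MF with LPS and 11.39, 11.66 and 11.47 in unstimulated GM-MF. Bst2 was not called in either LPS response, at 0.19 in GM-DC with a 95% interval from -0.06 to 0.44 (adjusted p = 0.442) and at 0.31 in GM-MF with an interval from 0.06 to 0.56 (adjusted p = 0.0957).

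**Figure D3:**
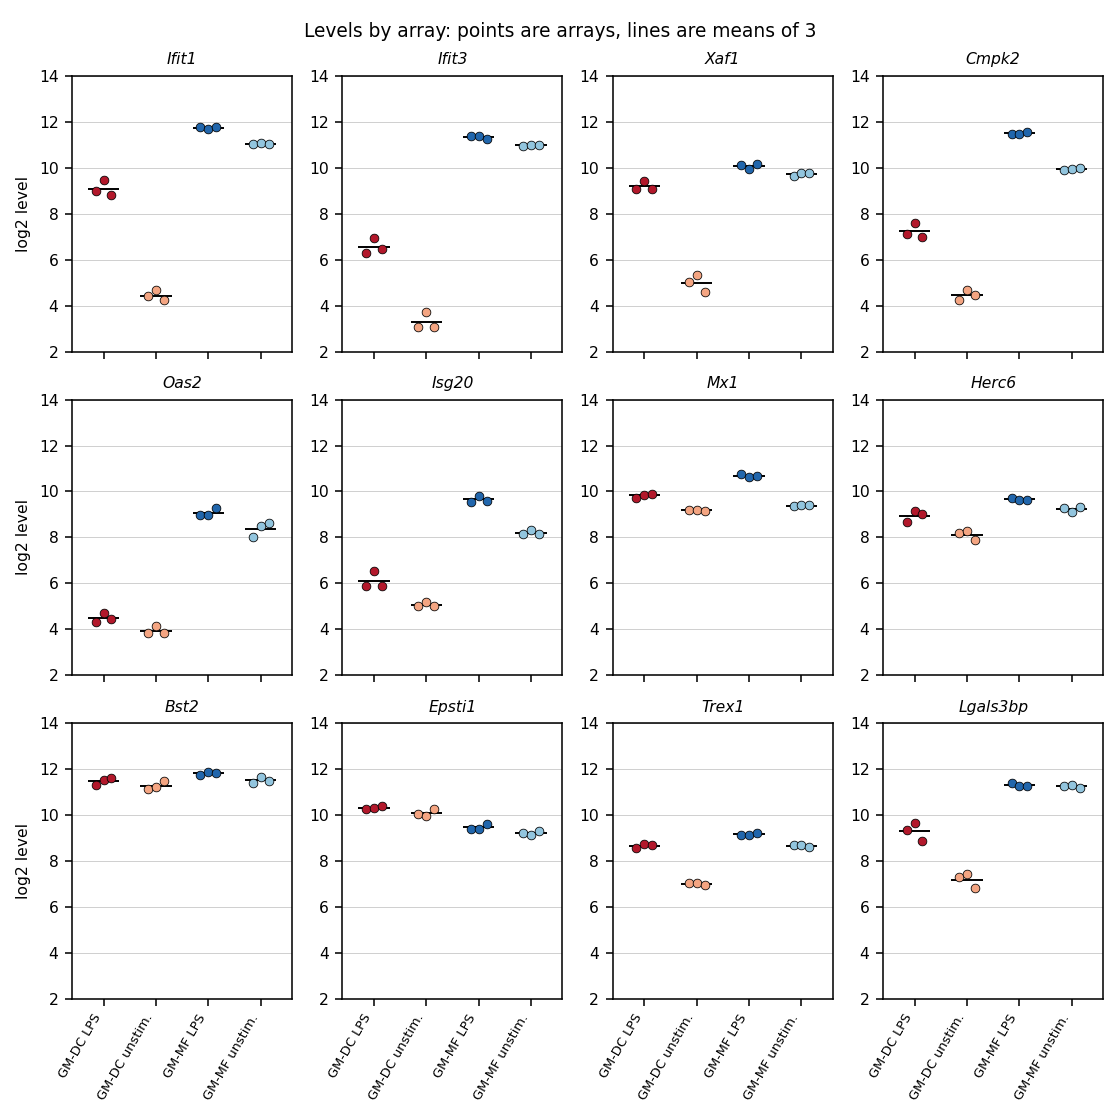
Each panel plots the log2 level (y axis) of 1 member on the 12 arrays, with GM-DC with LPS, unstimulated GM-DC, GM-MF with LPS and unstimulated GM-MF from left to right and lines at the means of 3. Ifit1 and Xaf1 are low in unstimulated GM-DC and high in the other groups, Oas2 is low in both GM-DC groups, and the 4 groups of Bst2 lie between 11.1 and 11.9.

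PARP9, PARP12 and PARP14 are ADP-ribosyl transferases or their relatives, and DTX3L is the ubiquitin ligase that pairs with PARP9. Parp14, Dtx3l and Parp9 are consecutive protein-coding genes on chromosome 16. All 4 rose in both cell types, with a median rise of 2.29 in GM-DC, against 0.59 in GM-MF, and the interaction was called higher for each. Parp14 had the largest GM-DC rise of them, 3.31 ± 0.12, with 10.15, 10.45 and 10.16 in GM-DC with LPS, against 6.93, 7.09 and 6.81 in unstimulated GM-DC. In GM-MF it rose by 0.57 ± 0.12, with means of 11.17 ± 0.14 with LPS and 10.60 ± 0.07 without (SD, n = 3 each). Parp12 rose by 2.42 ± 0.12 in GM-DC and 0.62 ± 0.12 in GM-MF, and averaged 8.90 ± 0.26 in GM-DC with LPS and 6.48 ± 0.09 in unstimulated GM-DC (SD, n = 3 each). Parp9 was at 9.35, 9.67 and 9.43 in GM-DC with LPS and 7.47, 7.39 and 7.12 in unstimulated GM-DC, and 10.29, 10.15 and 10.20 in GM-MF with LPS and 9.61, 9.58 and 9.50 in unstimulated GM-MF. Dtx3l was at 9.37, 9.70 and 9.46 in GM-DC with LPS and 7.77, 7.67 and 7.61 in unstimulated GM-DC, and 10.08, 9.85 and 10.01 in GM-MF with LPS and 9.44, 9.41 and 9.42 in unstimulated GM-MF. The partners gave rises in GM-DC of 2.16 ± 0.11 for Parp9 and 1.83 ± 0.11 for Dtx3l, and in GM-MF of 0.65 ± 0.11 for Parp9 and 0.56 ± 0.11 for Dtx3l.

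The other members have varied roles. Xaf1, a promoter of cell death, had 9.08, 9.45 and 9.09 in GM-DC with LPS, against 5.05, 5.32 and 4.61 in unstimulated GM-DC, a rise of 4.21 ± 0.16 in GM-DC. In GM-MF it was at 10.15, 9.97 and 10.16 with LPS and 9.64, 9.76 and 9.76 without, a difference of 0.37 ± 0.16 that was not called (adjusted p = 0.132). Its interaction of 3.84 ± 0.22 was among the largest of the set. Lgals3bp encodes a secreted glycoprotein that binds galectins. It had 9.33, 9.67 and 8.85 in GM-DC with LPS, against 7.31, 7.43 and 6.83 in unstimulated GM-DC. The GM-DC rise of Lgals3bp was 2.09 ± 0.18, while GM-MF had 11.40, 11.25 and 11.24 with LPS and 11.28, 11.33 and 11.16 without. Those GM-MF groups overlapped, and the difference was 0.04 with a 95% interval from -0.34 to 0.43 (adjusted p = 0.926). Sp100, a component of nuclear bodies that repress viral genomes, was at 9.38, 9.65 and 9.47 in GM-DC with LPS and 7.73, 7.83 and 7.72 in unstimulated GM-DC, and 9.91, 9.81 and 9.90 in GM-MF with LPS and 9.74, 9.65 and 9.72 in unstimulated GM-MF. It rose by 1.74 ± 0.10 in GM-DC and was not called in GM-MF, at 0.17 ± 0.10 (adjusted p = 0.299). Ifi27l2a, a small membrane protein of the interferon response, was at 10.28, 10.76 and 10.22 in GM-DC with LPS and 9.33, 9.63 and 9.10 in unstimulated GM-DC, and 11.88, 12.05 and 12.004 in GM-MF with LPS and 11.69, 11.69 and 11.82 in unstimulated GM-MF. Its GM-DC rise was 1.07 ± 0.15, and its GM-MF difference of 0.25 ± 0.15 was not called (adjusted p = 0.339). The interaction for Ifi27l2a, 0.82 ± 0.21 (adjusted p = 0.0265), was lost when any 1 of 6 arrays was left out (adjusted p = 0.0522 to 0.0696). Those were arrays 1 and 3 of unstimulated GM-DC, array 2 of GM-DC with LPS, array 3 of unstimulated GM-MF, and arrays 1 and 3 of GM-MF with LPS. Ifi35, which binds other interferon-induced proteins, was at 9.43, 9.84 and 9.62 in GM-DC with LPS and 7.84, 7.95 and 8.14 in unstimulated GM-DC, and 10.23, 10.20 and 10.25 in GM-MF with LPS and 9.59, 9.64 and 9.62 in unstimulated GM-MF. It rose by 1.65 ± 0.11 in GM-DC and 0.61 ± 0.11 in GM-MF. Epsti1, a regulator of macrophage polarisation in mice, was at 10.28, 10.29 and 10.41 in GM-DC with LPS and 10.05, 9.95 and 10.25 in unstimulated GM-DC, and 9.38, 9.38 and 9.63 in GM-MF with LPS and 9.21, 9.12 and 9.32 in unstimulated GM-MF. For Epsti1 the LPS differences were small and not called, 0.24 in GM-DC with a 95% interval from 0.01 to 0.48 (adjusted p = 0.239) and 0.25 in GM-MF with an interval from 0.01 to 0.48 (adjusted p = 0.163), although the groups did not overlap in either cell type.

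Without LPS the order of the cell types was the same for nearly all members. GM-DC were lower than GM-MF for 32 of 35 and higher for 1, Epsti1, while Mx1 and Bst2 were not called, against 34.2% of all genes called in either direction, 16.2% lower and 18% higher. The median difference was -3.66, against -0.01 over all genes. Ifit3 (-7.68 ± 0.18), Rtp4 (-7.41 ± 0.21) and Ifit2 (-7.20 ± 0.17) had the widest gaps. Epsti1 was higher in GM-DC by 0.87 ± 0.11 (adjusted p = 1.14e-05), so that 0 members were higher by 1 or more, against 5.69% of all genes. Mx1 differed by -0.21, with a 95% interval from -0.41 to -0.02 (adjusted p = 0.0836), and its groups did not overlap. Bst2 differed by -0.22, with an interval from -0.47 to 0.03 (adjusted p = 0.18), and its groups overlapped.

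With LPS in both cell types, GM-DC stayed below GM-MF for 34 of 35 members and above for Epsti1 (0.86 ± 0.11), with none uncalled, against 36.3% of all genes called in either direction, 15.4% lower and 20.9% higher. The median was -1.77, against under 0.01 in size over all genes, and without the second array of GM-DC with LPS it was -1.99 with 33 lower. The widest gaps were those of Ifit3 (-4.79 ± 0.18), Oas2 (-4.59 ± 0.16) and Cmpk2 (-4.26 ± 0.15). Bst2 was lower in GM-DC by 0.34 (adjusted p = 0.0351), and that call was lost without array 1 or 2 of GM-DC with LPS or array 2 or 3 of GM-MF with LPS (adjusted p = 0.0624 to 0.149). Of the 34, 21 were lower by 1 or more and 0 were higher by that much, against 6.50% of all genes lower and 6.40% higher at that size. With cyclic loess scaling 47.2% of all called genes were higher in GM-DC, against 57.6% as deposited.

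Whether stimulated GM-DC reached the level of unstimulated GM-MF was asked next. GM-DC with LPS remained below unstimulated GM-MF for 23 of 35 members, were above for Mx1 and Epsti1, and were not called for 10, against 33.6% of all genes called in either direction, 16.4% lower and 17.2% higher. The median difference was -1.07, against under 0.01 in size over all genes. Without the second array of GM-DC with LPS it was -1.21 and 25 were lower, Oasl1 (-0.55, adjusted p = 0.0262) and Usp18 (-0.37, adjusted p = 0.0332) being added. The members furthest below were Ifit3 (-4.42 ± 0.18), Oas2 (-3.89 ± 0.16) and Rtp4 (-3.30 ± 0.21). Epsti1 was above by 1.11 ± 0.11 and Mx1 by 0.45 ± 0.09 (adjusted p = 8.58e-07 and 0.001), which left 1 member higher by 1 or more, against 5.63% of all genes. The 10 not called were Oasl1, Adar, Trex1, Usp18, Herc6, Bst2, Parp9, Dtx3l, Ifi35 and Sp100. For Trex1 the 95% interval of the difference ran from -0.20 to 0.19, for Dtx3l from -0.14 to 0.32, and for Ifi35 from -0.23 to 0.26. The interval was wider for Oasl1, from -0.75 to 0.01 (adjusted p = 0.138). Adar (-0.30 to 0.17), Usp18 (-0.51 to 0.03), Herc6 (-0.57 to 0.0032), Parp9 (-0.33 to 0.16), Sp100 (-0.41 to 0.0012) and Bst2 (-0.28 to 0.22) make up the rest, each with its 95% interval. Of the called differences, 4 were lost when a single array was left out. Mx2 (-0.41) and Xaf1 (-0.52) were lost without array 3 of unstimulated GM-MF or array 1 or 3 of GM-DC with LPS, with adjusted p of 0.0653 to 0.119 for Mx2 and 0.052 to 0.0675 for Xaf1. Parp14 (-0.35) was lost without array 1 or 3 of either group (adjusted p = 0.0859 to 0.117). Eif2ak2 (-0.37) was lost without any 1 of the arrays of unstimulated GM-MF or without array 1 or 3 of GM-DC with LPS (adjusted p = 0.0578 to 0.141). As a share of the resting gap on the log2 scale, the LPS rise in GM-DC covered a median of 71.7% over the 32 members with that gap called. The share ran from 12.4% for Oas2 to 105% for Dtx3l and was over 100% for 2 members, Dtx3l and Ifi35. For Ifit2, Ifit3, Oas2, Ddx60, Samd9l and Rtp4 the resting gap rests on unstimulated GM-DC values under the array median on all 3 arrays. For Ifit1, Oas3, Oasl2, Ddx58 and Cmpk2 it does so on some arrays. The shares without the second array of GM-DC with LPS were not computed.

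**Figure D4:**
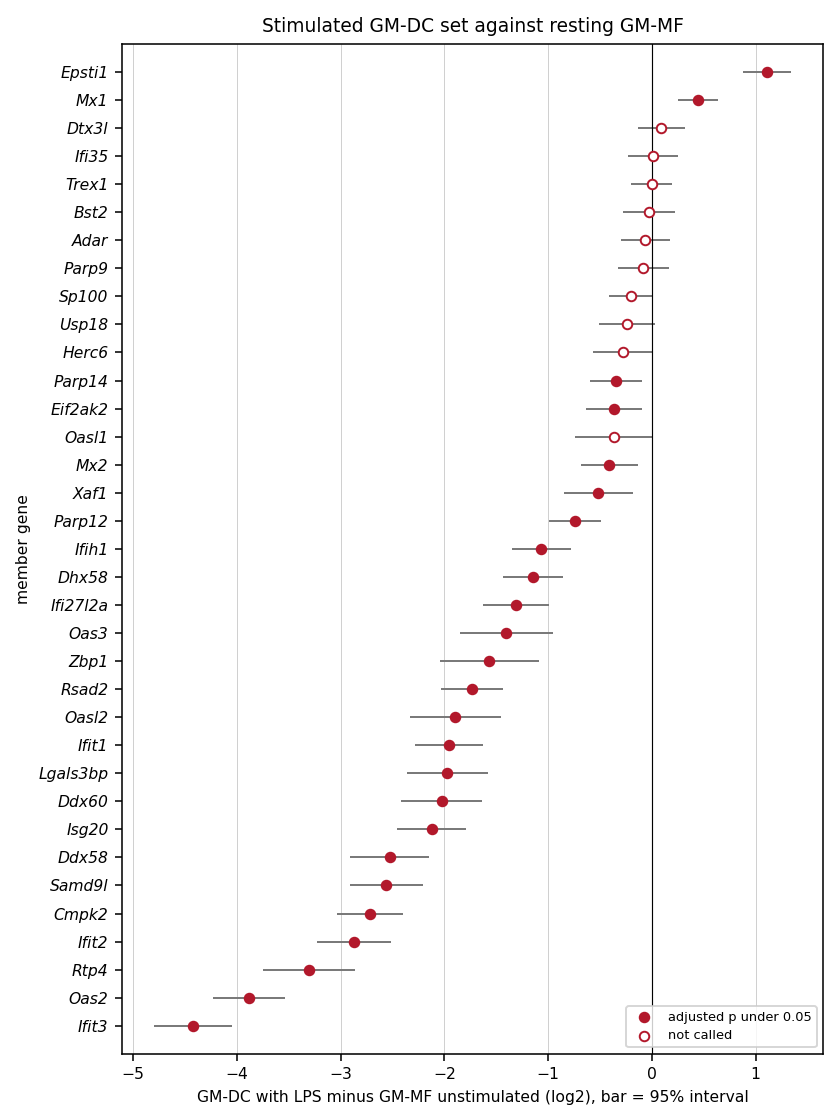
Points give the difference of GM-DC with LPS minus unstimulated GM-MF (log2, x axis) for each of the 35 members (y axis), with 95% intervals, filled where the adjusted p was under 0.05. Epsti1 and Mx1 lie above 0, 10 open points lie around or just below 0, and Ifit3 lies furthest down at -4.42.

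The rest of the interferon pathway was read from lists of its genes by role. Beside the counts of each list stand the shares of all genes called with LPS. They were 5.23% higher and 4.49% lower in GM-DC, and 6.54% higher and 10.8% lower in GM-MF. Of 20 interferon genes 16 were measured, and with LPS 1 was higher in GM-DC and 2 in GM-MF. Counts that small are not read as a result about the list. Ifnb1, the interferon beta gene, was at 3.93, 3.99 and 3.91 in GM-DC with LPS and 2.91, 2.90 and 3.23 in unstimulated GM-DC, and 7.42, 7.12 and 7.83 in GM-MF with LPS and 4.25, 4.13 and 5.14 in unstimulated GM-MF. It rose by 0.93 ± 0.22 in GM-DC (adjusted p = 0.0149) and by 2.95 ± 0.22 in GM-MF (adjusted p = 4.26e-07), so that the interaction was -2.02 ± 0.32 (adjusted p = 0.000869), opposite in sign to that of most members. All GM-DC values of Ifnb1 lay under the array medians, and so did arrays 1 and 2 of unstimulated GM-MF. The sizes of both rises and of the interaction are thus ratios to signals not shown to lie above background. The other interferon gene called in GM-MF was Ifnz (0.63 ± 0.21), which was near the array medians at 4.69, 5.06 and 4.12 in unstimulated GM-MF. Of 9 receptor and JAK kinase genes, 0 were higher and 3 lower with LPS in GM-DC, and 2 were higher and 1 lower in GM-MF. Ifnar1, a chain of the receptor for interferon beta, was at 7.63, 7.80 and 7.83 in GM-DC with LPS and 8.32, 8.07 and 8.10 in unstimulated GM-DC, and 9.60, 9.38 and 9.54 in GM-MF with LPS and 9.25, 9.24 and 9.23 in unstimulated GM-MF. Its difference was -0.41 ± 0.10 in GM-DC and was not called in GM-MF (0.27 ± 0.10, adjusted p = 0.0904), with an interaction of -0.68 ± 0.15. The others lower in GM-DC were Ifngr1 (-0.54 ± 0.12), a chain of the interferon gamma receptor, and Tyk2 (-0.36 ± 0.11). In GM-MF the kinases Jak2 (1.19 ± 0.12) and Jak1 (0.37 ± 0.10) were higher and Ifngr1 (-0.63 ± 0.12) was lower.

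Among the factors, 4 of 8 measured STAT and IRF genes were higher with LPS in GM-DC and 0 lower, and 4 were higher and 1 lower in GM-MF. For this list and those below, the shares of all genes were 5.23% higher and 4.49% lower in GM-DC, and 6.54% higher and 10.8% lower in GM-MF. Irf7, which amplifies interferon production and is itself induced by interferon, was at 7.58, 8.37 and 7.94 in GM-DC with LPS and 4.42, 4.89 and 4.65 in unstimulated GM-DC, and 10.92, 10.94 and 10.82 in GM-MF with LPS and 10.05, 10.08 and 10.17 in unstimulated GM-MF. It rose by 3.31 ± 0.16 in GM-DC and 0.80 ± 0.16 in GM-MF, with an interaction of 2.51 ± 0.23 (adjusted p = 8.1e-06). Stat2 was at 9.96, 10.28 and 9.94 in GM-DC with LPS and 8.16, 8.01 and 8.32 in unstimulated GM-DC, and 10.18, 10.20 and 10.13 in GM-MF with LPS and 10.11, 10.20 and 10.18 in unstimulated GM-MF. Its rise of 1.90 ± 0.11 in GM-DC stood beside a GM-MF difference of 0.01 ± 0.11 (adjusted p = 0.977). Irf1 rose in both cell types, by 0.83 ± 0.14 in GM-DC and 1.08 ± 0.14 in GM-MF, and Irf3 fell in GM-MF (-0.53 ± 0.09). Irf9 rose by 0.94 ± 0.09 in GM-DC and 0.32 ± 0.09 in GM-MF, and Irf8, a lineage factor of myeloid cells, rose by 1.62 ± 0.12 in GM-MF and was not called in GM-DC (0.01 ± 0.12, adjusted p = 0.991). Of 13 measured upstream receptors and adaptors, 7 were higher and 2 lower with LPS in GM-DC, and 6 were higher and 3 lower in GM-MF. The DNA sensor gene Cgas rose by 1.75 ± 0.12 in GM-DC and 0.40 ± 0.12 in GM-MF, and Ikbke, a kinase that activates IRF3, by 1.55 ± 0.14 in GM-DC and 0.49 ± 0.14 in GM-MF. These were the largest rises of the list in GM-DC, while the largest in GM-MF was that of Tlr3 (0.91). The interaction was called higher for 4 of the 13, lower for 0 and not called for 9, Tlr3 among them. Over all genes 4.53% were called higher and 3.06% lower. Lower with LPS were Ticam1 (-0.53 ± 0.11), which encodes TRIF, and Mavs (-0.39 ± 0.11), the adaptor of RIG-I and MDA5, in GM-DC, and Mavs (-0.99 ± 0.11), Tlr4 (-0.80 ± 0.26) and Sting1 (-0.51 ± 0.15) in GM-MF. Of 8 inhibitors of interferon signalling, 4 were higher with LPS in GM-DC and 3 in GM-MF, with 0 lower in either. Trim30a, which restrains Toll-like receptor signalling in mice and is induced by interferon, rose by 3.31 ± 0.17 in GM-DC, against 0.28 ± 0.17 in GM-MF, not called there (adjusted p = 0.337). Socs1 and Socs3, feedback inhibitors of JAK kinases, had the larger rise in GM-MF. Socs1 rose by 1.88 ± 0.11 in GM-MF and was not called in GM-DC (0.32 ± 0.11, adjusted p = 0.0945), with an interaction of -1.56 ± 0.16 (adjusted p = 1.86e-05). Socs3 rose by 1.06 ± 0.16 in GM-DC and 2.94 ± 0.16 in GM-MF, an interaction of -1.88 ± 0.22 (adjusted p = 6.97e-05).

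**Figure D5:**
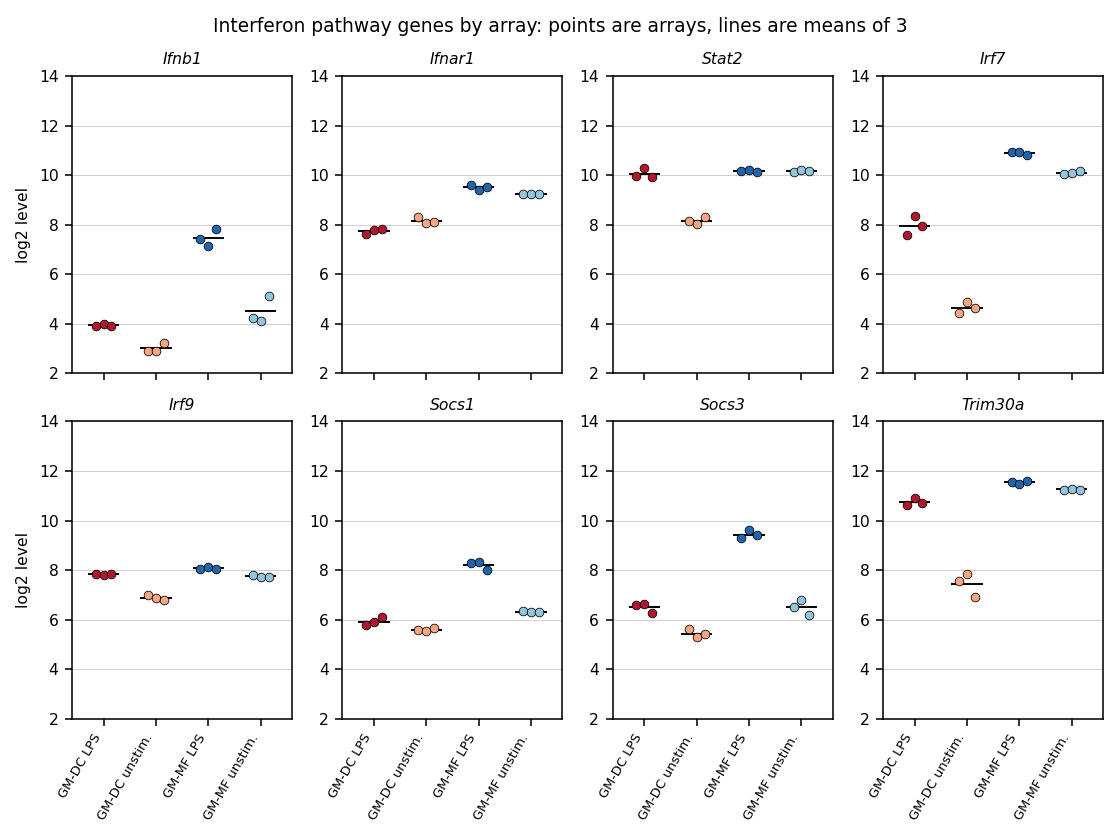
Each panel plots the log2 level (y axis) of 1 gene of the interferon pathway on the 12 arrays, with GM-DC with LPS, unstimulated GM-DC, GM-MF with LPS and unstimulated GM-MF from left to right and lines at the means of 3. Irf7, Stat2 and Trim30a show the low unstimulated GM-DC level, and Ifnb1, Socs1 and Socs3 are highest in GM-MF with LPS.

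Some macrophage markers also moved with LPS in GM-DC. Beside the marker counts here stand the shares of all genes called with LPS. They were 5.23% higher and 4.49% lower in GM-DC, and 6.54% higher and 10.8% lower in GM-MF. Of the 8 macrophage markers, 4 rose with LPS in GM-DC, Mrc1 (2.44 ± 0.16), Adgre1 (1.24 ± 0.14), Mertk (0.997 ± 0.16) and Cd14 (0.76 ± 0.14), 1 fell, Csf1r (-1.62 ± 0.12), and 3 were not called. Their summed linear signal ran from 728 to 969 in GM-DC with LPS and from 705 to 784 in unstimulated GM-DC, against 10763 to 12210.3 in GM-MF with LPS and 10145 to 11546 in unstimulated GM-MF. Mrc1 was at 5.96, 6.59 and 5.94 in GM-DC with LPS and 3.93, 3.60 and 3.63 in unstimulated GM-DC, and 8.42, 8.15 and 8.48 in GM-MF with LPS and 8.16, 7.93 and 8.12 in unstimulated GM-MF, and it was highest in GM-DC on the second LPS array, as most members were. Dendritic cell markers summed to 12684 to 13342 in GM-DC with LPS and 11202 to 12650.0 in unstimulated GM-DC, against 2552 to 3429 in GM-MF with LPS and 2110 to 2525 in unstimulated GM-MF. In GM-MF, 5 of the 8 dendritic cell markers rose with LPS, Ccr7 by 2.47 ± 0.26. Of 7 measured markers of plasmacytoid dendritic cells, 1 rose with LPS in GM-DC, Tcf4 (1.25 ± 0.13), and 2 in GM-MF, Tcf4 (0.69 ± 0.13) and Ccr9 (0.77 ± 0.12), with 0 lower in either. Their summed linear signal ran from 1293 to 1363 in GM-DC with LPS and from 868 to 1116 in unstimulated GM-DC, against 855 to 916 in GM-MF with LPS and 573 to 720.4 in unstimulated GM-MF. Siglech, the surface marker of that cell type, was between 3.94 and 4.18 on all 12 arrays. Without LPS, 2 of these 7 markers were higher in GM-DC than in GM-MF, Spib (by 4.53 ± 0.23) and Pacsin1. In the same comparison 3 were lower, Tcf4, Ccr9 and Cox6a2, and 2 were not called, against 18% of all genes higher and 16.2% lower. The part of these markers in the LPS response of the members was not tested.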

How the data were processed

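The authors deposited log2 expression values in 1 table of 35556 probe sets by 12 arrays. Per the submitters' processing notes these come from RMA and R 3.0.2. No source states the log base. Values that end at 13.7 fit base 2, which was assumed. No scaling, filter or background call was added. The number of arrays, 3 per group, limits the precision.

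Probe sets with 1 symbol (21789, against 1621 with several and 12146 with none) gave 19938 genes, keeping per gene the probe set with the highest mean over all arrays. limma 3.58.1 in R 4.3.3 (lmFit, contrasts.fit, eBayes without trend) fitted 4 group means to all 12 arrays, with 8 residual degrees of freedom, and gave 6 comparisons, each adjusted over all genes by Benjamini-Hochberg. The fit was tested on simulated data. Groups came from the labels' titles and characteristics.

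Named genes were all members, with values per array for the 3 with the largest called differences in each direction, for those not called and for those at the ends of each group's levels, and per pathway list up to 2 called genes per direction. Irf9 and the marker genes given with values were picked after their values were seen. The members and lists were chosen with earlier results of these data known. Alternatives were another scaling, probe set rule, filter, prior, array weights, threshold, the arrays of the compared groups alone, leaving out each array, and a replicate block.

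Replicate numbers repeat across groups. After centring on group means, same-numbered arrays of stimulated and unstimulated cells correlated at 0.119 to 0.363 in GM-DC and at 0.104 to 0.257 in GM-MF. Differently numbered arrays gave -0.25 to 0.164 in GM-DC and -0.216 to 0.0254 in GM-MF. In GM-MF each same-numbered pair was above all others, while in GM-DC the ranges overlapped, so a pairing there is not settled. The labels give no pairing. Between the cell types, same-numbered arrays did not all correlate at over 0.1.

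RefSeq promoter windows (GRCm38.p6) were matched by gene. Coordinates are those of these windows. The array's genome build is not given in the sources used here.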

Additional observations from a re-analysis of the deposited data

Results flagged for a closer look

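The difference between the LPS response of GM-DC and that of GM-MF, tested as the interaction in limma, passed an adjusted p of 0.05 for 30 of 35 members. Values are log2 responses of GM-DC minus those of GM-MF. The rise in GM-DC exceeded that in GM-MF by 3 or more for Ifit1 (3.97), Xaf1 (3.84), Samd9l (3.83), Rtp4 (3.81), Ifit2 (3.72), Oasl2 (3.56) and Ddx58 (3.04). It was larger by between 2 and 3 for Ifit3 (2.88), Parp14 (2.74), Oas3 (2.55), Eif2ak2 (2.49), Dhx58 (2.40), Lgals3bp (2.05), Usp18 (2.04) and Zbp1 (2.01). Smaller excesses were found for Ifih1 (1.95), Parp12 (1.80), Oasl1 (1.60), Sp100 (1.57), Rsad2 (1.55), Parp9 (1.51), Dtx3l (1.27), Cmpk2 (1.22), Mx2 (1.22), Trex1 (1.14), Adar (1.06), Ifi35 (1.04), Ddx60 (1.02) and Ifi27l2a (0.82). Mx1 was the 1 member whose interaction was called lower (-0.64). The interaction compares sums of 4 group means on the log2 scale. A larger value is a larger ratio of signals, and gains in linear signal were not compared. For Ifit2, Ifit3, Ddx60, Samd9l and Rtp4 the GM-DC rise starts from values under the array median, where the size of a rise is a ratio of signals. For Ifit1, Oas3, Oasl2 and Ddx58 unstimulated arrays 1 and 3 of GM-DC were under 4.41, the lowest array median, and for Cmpk2 array 1 was.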

How the results depend on the processing

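Of 210 member results (35 members in 6 comparisons), 147 kept their direction and their side of the threshold under every alternative run, and 63 did not under at least 1. Of the 178 called, 12 lost the call under some alternative at the same threshold, those named in the report. Of those not called, 12 passed under some alternative: Ifit3, Oasl2, Zbp1, Bst2, Samd9l and Xaf1 in GM-MF, the interaction of Isg20, Mx1 between the unstimulated cell types, and Oasl1, Usp18, Herc6 and Sp100 between GM-DC with LPS and unstimulated GM-MF. Leaving out each array in turn gave 32 to 33 members higher with LPS in GM-DC (median 2.29 to 2.57), 18 to 24 in GM-MF (median 0.52 to 0.58), interactions higher for 27 to 29 and lower for 1 to 2 (median 1.501 to 1.75), and 32 lower in GM-DC without LPS (median -3.73 to -3.59). It gave 33 to 34 lower in GM-DC with LPS (median -1.99 to -1.66), and 19 to 25 lower in GM-DC with LPS than in unstimulated GM-MF (median -1.21 to -0.98). The end values 2.29, 2 lower interactions, -1.99 and -1.21 came without the second array of GM-DC with LPS. With cyclic loess the median between the cell types with LPS was -1.91, against -1.77 as deposited. Asking also for a log2 difference of 1 left 5 members higher with LPS in GM-MF, 0 interactions lower, 0 members higher in GM-DC without LPS, 0 higher and 21 lower in GM-DC with LPS, and 1 higher in GM-DC with LPS than in unstimulated GM-MF. With the replicate block, member counts in the 6 comparisons were the same as without it: 33 and 22 higher with LPS in GM-DC and GM-MF, 29 interactions higher and 1 lower, 32 and 34 lower without and with LPS, and 23 lower against unstimulated GM-MF. In GM-MF the block ended the call of Herc6 and added that of Oasl2, and it changed no other call. The block gives each replicate number a common shift in both cell types, so a pairing within each cell type was not modelled. Signs turned for differences near 0 that were not called. Leaving out 1 array gave -0.0072 to 0.081 for Lgals3bp in GM-MF, -0.27 to 0.029 for the interaction of Oas2, and -0.069 to 0.079 for that of Epsti1, which was 0.0154 with quantile normalization and 0.0469 with array weights. For GM-DC with LPS against unstimulated GM-MF it gave -0.041 to 0.0501 for Trex1 (0.0106 with array weights), -0.0904 to 0.0461 for Bst2, -0.0057 to 0.164 for Dtx3l, and -0.0936 to 0.113 for Ifi35 (-0.0281 with median centring, -0.0681 with cyclic loess and -0.00751 with array weights). The cause of these changes was not tested. The scalings moved the median of all genes by less than 0.1. Arrays give no read depth, and members under the array median in unstimulated GM-DC have only a ratio of signals.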

Other observations

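Members that are neighbours in the RefSeq order of protein-coding genes are set side by side here. Ifit2 and Ifit3 on chromosome 19 rose in GM-DC by 4.33 for Ifit2 and 3.26 for Ifit3, with resting gaps between GM-DC and GM-MF of -7.20 for Ifit2 and -7.68 for Ifit3. Oasl2 and Oasl1 on chromosome 5 rose in GM-DC by 4.14 for Oasl2 and 3.01 for Oasl1, while in GM-MF the rise was called for Oasl1 (1.40) and not for Oasl2 (0.58). Oas2 and Oas3, also on chromosome 5, had close resting gaps, -4.44 for Oas2 and -4.29 for Oas3, beside GM-DC rises of 0.55 for Oas2 and 2.89 for Oas3. These differences between neighbours were not tested.

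The 9 members with the response element core in their promoter window had a median LPS difference in GM-DC of 2.89, from 0.19 (Bst2) to 4.66 (Ifit1). The 16 members whose windows lack those letters had a median of 1.96, from 0.24 (Epsti1) to 4.33 (Ifit2). In GM-MF the medians were 0.39 with the core and 0.53 without it. The ranges overlap, the split was made after the values were known, and it was given no test.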
